A study of Mus musculus with 32 samples.

Results

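Ribosomal proteins build, together with ribosomal RNA, the particles that translate messenger RNA. In mammals the cytosolic ribosome has a small and a large subunit, whose protein genes carry the prefixes Rps and Rpl, while mitochondria have their own ribosome, with nuclear-encoded Mrps and Mrpl proteins, which translates the few mRNAs of the mitochondrial genome. Cytosolic ribosomal protein genes are active in nearly all cells, neurons and glia of the brain included, and the translation of their mRNAs is controlled through the mTOR pathway.

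The ribosomal protein genes described here were taken from the probe titles of a cDNA array, as those that name a ribosomal protein and are neither expressed sequence tags nor kinases. The rule found 9 of 5163 cDNA probes, each for another gene. The 8 described singly are Rpl12, Rpl19, Rpl27a, Rpl30 and Rpl36 of the large cytosolic subunit, Rps3 of the small one, and Mrpl14 and Mrps7 of the large and the small mitochondrial subunit. The tissue was prefrontal cortex. The mice descend from a heterogeneous stock and were selected for severe (withdrawal seizure-prone, WSP) or mild (withdrawal seizure-resistant, WSR) convulsions on ethanol withdrawal, with 2 selection replicates in each direction. The 8 groups were EtOH and Air mice of each line, coded as females and as males. EtOH mice spent 72 h in ethanol vapor after an ethanol injection, whose dose was higher in WSP-2 than in the other lines, Air mice were kept in air, and all mice, Air mice included, received the alcohol dehydrogenase inhibitor pyrazole at 68.1 mg/kg. Tissue was taken at 0 h of withdrawal. Each array carried 33P-labelled cDNA from RNA pooled from 2 animals, and a group had 4 arrays, 2 pools from each selection replicate. One array, female WSR EtOH 2-1 (selection replicate 2, pool 1), was marked excluded by the submitters, which leaves 31 arrays. Each direction of selection rests on 2 selected lines, so a difference between WSP and WSR includes chance fixation during breeding. The Y-linked Eif2s3y, above background on 20 of 31 arrays, differed by -0.42 ± 0.19 (SE, log2, female minus male, limma adjusted p = 0.0967) over the lines, 0.06 ± 0.26 in WSP (adjusted p = 0.92) and -0.90 ± 0.27 in WSR (adjusted p = 0.0156). It did not tell the sexes apart in WSP. In WSR 22.3% of all probes passed between the sexes, 17.4% lower in females, so the value there does not settle the sexes either. Sex is therefore given as coded.

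Levels are normalised log2 signals, so a difference of 1 is a 2-fold difference. Each array came with 1 deposited background reading, and a probe with a signal over it is called above background. That reading ran from 8.25 to 769 over the arrays and was not spread evenly: it was 430 to 769 on the 7 female WSR arrays, 10.3 to 283 on the 8 female WSP arrays and 8.25 to 41.1 on the 16 male arrays. Between 15.8% and 82.5% of all probes were above background on an array. Probes for the neuronal Syn1 (12 arrays) and the astrocytic glutamine synthetase (31 arrays) were above background on some or all of the 31 arrays, and no probe title matched the fixed microglia and endothelium markers.

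To place the genes that the results turn on, the 30 bases around their RefSeq transcription starts are shown where a start was matched. Each window (build GRCm38.p6) holds 10 bases before the start and 20 from it, read on the strand of the mRNA. For 3 of the 9 genes, Rpl30 and Rpl36 among them, no start was matched. Cytosolic ribosomal protein mRNAs typically begin with a C followed by an unbroken run of C and T bases, the 5′ terminal oligopyrimidine tract through which mTOR controls their translation. Capitals mark the longest run of C and T in each window.
Rpl27a, chr7:109519185-109519214, plus strand: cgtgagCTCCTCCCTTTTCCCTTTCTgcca
Rpl12, chr2:32961702-32961731, plus strand: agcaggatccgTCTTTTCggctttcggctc
Rpl19, first start, chr11:98026700-98026729, plus strand: aaacgCCCTCactgcgcatgtgcgccgcgg
Rpl19, second start, chr11:98026914-98026943, plus strand: TCTCCCCTTCgcagataatgggcggagcct
Rps3, chr7:99483690-99483719, minus strand: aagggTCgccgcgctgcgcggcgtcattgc
Mrps7, chr11:115604130-115604159, plus strand: gcagCCCTCCgaggtcctgacagcggccaa
The run was 20 bases in Rpl27a, 10 at the second and 5 at the first Rpl19 start, 7 in Rpl12, 6 in Mrps7 and 2 in Rps3. In Rpl27a it begins 4 bases before the annotated start and runs past it, and in Rpl12 it begins at base 2 from the start. At both Rpl19 starts and in Mrps7 it lies wholly before the annotated start, outside an mRNA that begins there. In Rps3 several runs of 2 bases tie, before and after the start, and the capitals mark the first. A run of 8 or more on the strand of the mRNA, before or after the start, stood in 2 of the 7 windows of the 6 matched genes (Mrpl14 included). It stood in 11.2% of 32851 windows of all genes. These are letters in a window of the annotated start, and nothing follows from them for the mRNAs on the arrays. Ribosomal protein genes have many near-identical pseudogene copies, which a cDNA spot cannot tell from the gene, so the source of a signal is uncertain in this respect.

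The 9 genes lay close to background. They were above it in 36.2% of their 279 pairs of probe and array, against 48.14% of all such pairs, and none of the 9 was above background on all 31 arrays, which 460 of 5163 probes were. Rpl36 and Mrps7 were above background on 17 arrays each, Rpl27a on 12, Rps3 on 11, Rpl19 on 9, Rpl12 and Rpl30 on 8 each and Mrpl14 on 6. The median of the 9 was 11 arrays, against 13 for all probes. Rpl30, whose yeast counterpart binds its own pre-mRNA, and Mrpl14, a protein at the interface of the mitochondrial subunits, fell below the dim filter (mean log2 signal over the 25th percentile, 4.21). That leaves 7 genes among the 3872 probes tested, and values of Rpl30 and Mrpl14 come from a fit without the filter. Levels of different probes are not comparable with each other on this array, so each gene is compared with itself.

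**Figure D1:**
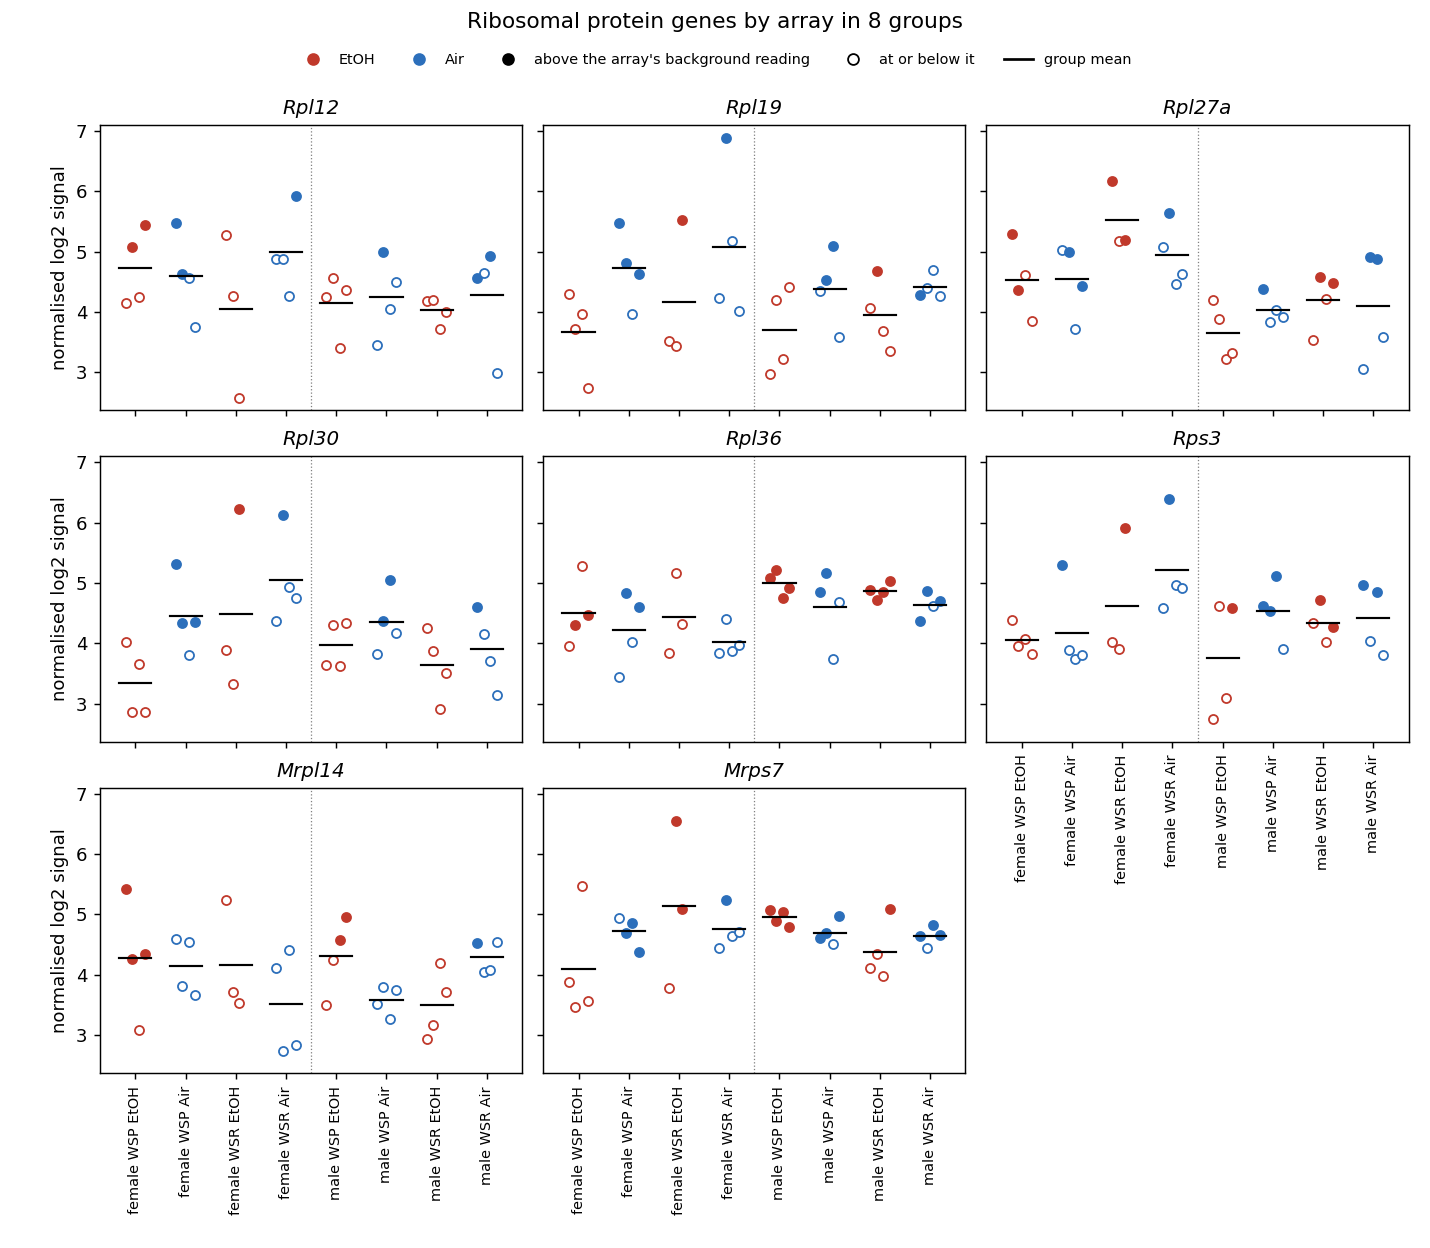
Normalised log2 signal (vertical axis) of each of 8 ribosomal protein genes on every array, by group on the horizontal axis with EtOH in red and Air in blue. Filled points lie above the background reading of their array, open points at or below it, and black bars are group means. Most points are open, and single female arrays such as female WSR Air 1-2 for Rpl19 (6.89) stand far above the rest of their group.

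Whether 72 h of ethanol vapor changed ribosomal protein genes was tested within each sex and line and over all of them. No ribosomal protein gene passed in any of these 5 comparisons. Over the 4 sex and line groups the 7 tested genes had a median difference of -0.06 (EtOH minus Air, log2, range -0.78 to 0.33, 3 positive), against 0.01 for all 3872 probes, of which 0.00% passed. In bulk tissue, a change in the number of cells that express a gene and a change in RNA per cell cannot be told apart. Within single groups the median was -0.03 in female WSP, -0.60 in female WSR, -0.10 in male WSP and -0.08 in male WSR, and the share of all probes that passed was 0.00%, 0.232% (0.0258% higher and 0.207% lower with EtOH), 0.00% and 0.00% in that order. An unadjusted p under 0.05 was found for 0 of the 7 genes in each of the 4 groups, and for 3.67%, 14.7%, 0.904% and 0.723% of all probes. The median in female WSR was 0.17 without female WSR Air 1-2 (6 genes tested) and -0.01 without female WSR Air 2-1.

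The lowest unadjusted p among the genes in the mean EtOH comparison belonged to Rpl19, a large-subunit protein at the contact between the subunits. It ran from 2.73 to 5.52 on the 15 EtOH arrays (median 3.71), against 3.59 to 6.89 on the 16 Air arrays (median 4.46). The ranges overlapped, and it was above background on 2 EtOH and 7 Air arrays. In female WSP its values were 4.30, 3.71, 3.96 and 2.73 with EtOH, against 5.47, 4.81, 3.97 and 4.64 in Air. In female WSR they were 3.53, 3.44 and 5.52 with EtOH, against 4.23, 6.89, 5.18 and 4.02 in Air. In male WSP they were 2.97, 4.19, 3.22 and 4.41 with EtOH, against 4.35, 4.52, 5.09 and 3.59 in Air. In male WSR they were 4.06, 4.67, 3.69 and 3.35 with EtOH, against 4.28, 4.39, 4.70 and 4.26 in Air. The mean lay lower with EtOH in each of the 4, while the arrays overlapped within each. The difference of -0.78 ± 0.27 (SE, log2) did not pass (unadjusted p = 0.00774, limma adjusted p = 0.858), and 1 of 7 genes against 5.22% of all probes had an unadjusted p under 0.05.

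Rpl30 and Rps3 stand beside Rpl19 on the filter and had values in the same direction. Rpl30 measured -0.58 ± 0.25 and Rps3, a small-subunit protein at the mRNA entry channel that also acts in DNA repair, -0.40 ± 0.24 (SE, log2, EtOH minus Air, adjusted p = 0.926 and 0.858). Rpl36 measured 0.33 ± 0.17 and Rpl12, at the base of the stalk where translation factors bind, -0.29 ± 0.26. The other 4 genes lay between -0.06 (Mrps7) and 0.17 (Mrpl14). None of these passed, with adjusted p at or above 0.858 in all 9.

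The dependence of the EtOH response on line or on sex was tested as an interaction. Neither test had a ribosomal protein gene past the threshold, nor any probe (0.00% in both, and 5.19% and 3.98% with an unadjusted p under 0.05, none of them a ribosomal protein gene). The medians over the 7 genes were -0.11 for the response in WSP minus that in WSR and -0.12 for the response in females minus that in males, against -0.00 and 0.03 over all probes.

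The comparison of WSP with WSR asks for differences between the selected lines. Over sex and treatment no ribosomal protein gene passed, against 1.19% of all probes (0.878% higher and 0.310% lower in WSP). The median of the 7 genes was -0.25 (WSP minus WSR, log2, range -0.51 to 0.10, 2 positive), against 0.03 for all probes. Rps3 ran from 2.75 to 5.29 in WSP (median 4.02), against 3.80 to 6.40 in WSR (median 4.59). Rpl27a, a large-subunit protein mutated in the ataxic sooty foot ataxia mouse, ran from 3.23 to 5.29 in WSP (median 4.11), against 3.06 to 6.18 in WSR (median 4.63). Both genes overlapped widely between the lines, with differences of -0.51 ± 0.24 and -0.50 ± 0.21 (SE, log2, limma adjusted p = 0.335 and 0.253). They are the 2 of 7 genes with an unadjusted p under 0.05, which 14.2% of all probes had.

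Within a sex and treatment no ribosomal protein gene passed between the lines either. The share of all probes that passed was 3.31% in female Air (2.43% higher and 0.878% lower in WSP), 0.0517% in female EtOH and 0.00% in each male comparison. An unadjusted p under 0.05 was found for 1 of 7 genes in female Air (18.0% of all probes), 2 in female EtOH (13.1%), 0 in male Air (2.14%) and 0 in male EtOH (4.34%). In female Air 6 of the 7 genes had negative values, with a median of -0.39, against 0.10 for all probes. That median was -0.13 without female WSP Air 2-1, -0.61 without female WSP Air 1-1 and 0.01 with the local median of neighbouring spots subtracted. The 4 WSP arrays there include 2 of low background, while all 4 WSR arrays have a high one. In female EtOH, Mrps7 was at 3.88, 3.47, 5.48 and 3.57 in WSP, none above background, against 3.79, 6.55 and 5.09 in WSR, of which 2 were above. Arrays of the 2 lines overlapped. The mean was at least 1.33-fold lower in WSP, and the difference did not pass (limma adjusted p = 0.289). This bound sets each WSP array at the higher of its own value and the lowest value above background. Without female WSR EtOH 1-1, one of the 3 WSR arrays, the adjusted p was 0.0199. With the local median of neighbouring spots subtracted, the Mrps7 difference was -0.04 ± 0.27 (SE, log2, limma adjusted p = 0.9995). The interaction of line and sex had no ribosomal protein gene past the threshold (median -0.29), against 0.904% of all probes.

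**Figure D2:**
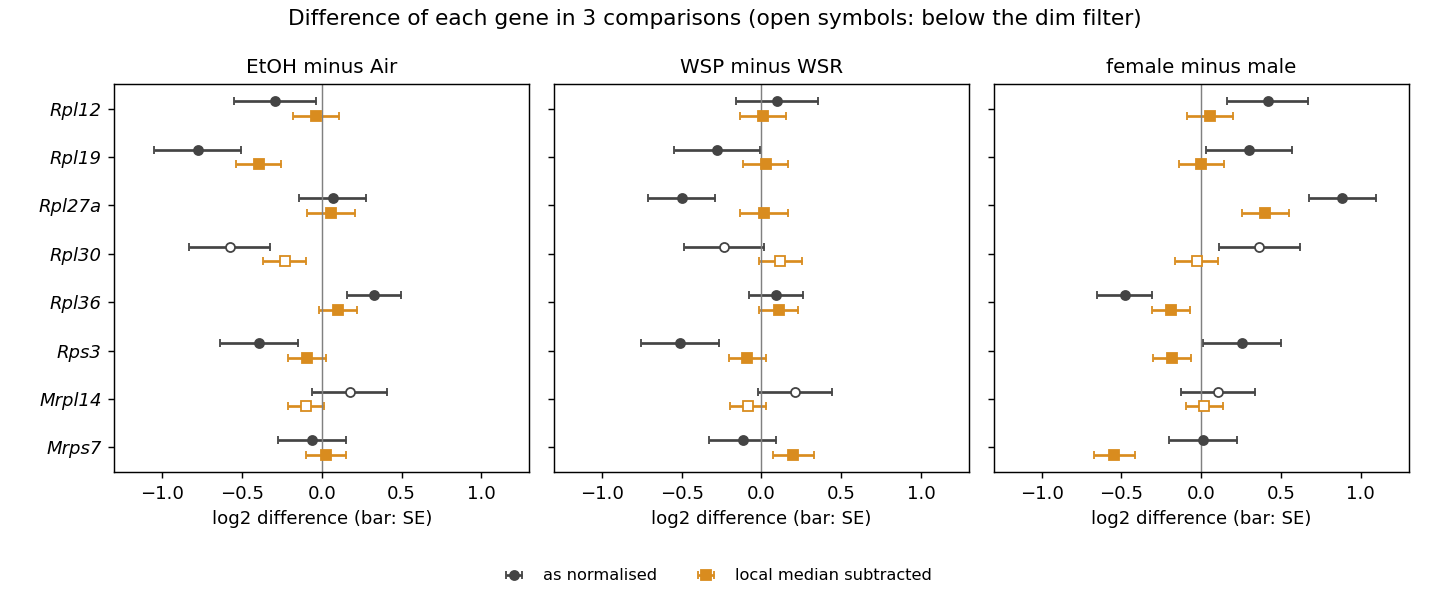
Log2 difference (horizontal axis, bar: SE) of each of 8 genes (rows) for EtOH minus Air, WSP minus WSR and female minus male, as means over the other factors. Black circles are the normalised values and orange squares the values after the median of the neighbouring spots was subtracted. Open symbols are Rpl30 and Mrpl14, below the dim filter. The circles reach from -0.78 (Rpl19, EtOH minus Air) to 0.88 (Rpl27a, female minus male), and the squares lie nearer to 0 for most genes, Mrps7 in female minus male (-0.54 against 0.01) excepted.

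Females and males, as coded, differed at 2 of the 7 tested genes over line and treatment. Rpl27a was higher and Rpl36 lower in females. This stands against 25.8% of all 3872 probes, 254 higher (6.56%) and 744 lower (19.2%) in females, so the share of genes called is near that of all probes. With cyclic loess in place of quantile normalisation the split over all probes was 253 higher and 209 lower, and both genes passed there too. The median over the 7 genes was 0.30 (female minus male, log2, 6 positive; -0.04 with background class as a term), against -0.03 for all probes, of which 47.9% were positive. An unadjusted p under 0.05 was found for 3 of 7 genes and 38.1% of all probes.

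Rpl27a ran from 3.72 to 6.18 on the 15 female arrays (median 4.99), against 3.06 to 4.90 on the 16 male arrays (median 3.97). The female arrays lay higher, with overlap, and 7 of 15 female against 5 of 16 male arrays were above background. By line these were 3 of 7 female against 4 of 8 male arrays in WSR, and 4 of 8 against 1 of 8 in WSP. The difference was 0.88 ± 0.21 (SE, log2, limma adjusted p = 0.0023). In WSR it was 1.08 ± 0.30 (adjusted p = 0.0101), and the values were 6.18, 5.17 and 5.20 in female EtOH and 5.08, 5.63, 4.46 and 4.63 in female Air, against 3.54, 4.58, 4.22 and 4.48 in male EtOH and 3.06, 4.90, 4.87 and 3.58 in male Air. In WSP it was 0.69 ± 0.29 (adjusted p = 0.183), and the values were 5.29, 4.37, 4.61 and 3.85 in female EtOH and 5.03, 4.99, 3.72 and 4.43 in female Air, against 4.19, 3.89, 3.23 and 3.32 in male EtOH and 4.38, 3.84, 4.03 and 3.91 in male Air. The EtOH arrays of the sexes did not overlap in WSR. The Air arrays overlapped in WSR, and in WSP the arrays of both treatments overlapped. How many of all probes separate the WSR EtOH arrays of the sexes was not tested, so this separation does not single out Rpl27a. Background readings also separate these arrays, at 430 to 769 in female WSR and 8.25 to 22.1 in male WSR. Of all probes, 22.3% passed in WSR (4.83% higher and 17.4% lower in females) and 4.55% in WSP (0.646% higher and 3.90% lower), with unadjusted shares of 33.7% and 19.6%, and the difference between the lines in this respect was not past the threshold for any ribosomal protein gene (the interaction of line and sex above).

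Rpl36, a large-subunit protein, ran from 3.45 to 5.28 on the female arrays (median 4.31), against 3.74 to 5.21 on the male arrays (median 4.85). It was above background on 4 of 15 female arrays, all WSP, and on 13 of 16 male arrays. The difference was -0.48 ± 0.17 (SE, log2, limma adjusted p = 0.0373). Its call was lost when any of 15 of the 31 arrays was left out (adjusted p between 0.0505 and 0.0798 there). In female WSR no array was above background, at a mean of 4.23 against 4.75 in male WSR, and no fold is given, since the bound does not exceed 1.

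The 5 other tested genes did not pass between the sexes. Rpl12 measured 0.42 ± 0.26 (SE, log2), Rpl19 0.30 ± 0.27, Rps3 0.25 ± 0.24 and Mrps7 0.01 ± 0.21. Of those below the filter, Rpl30 measured 0.36 ± 0.25 and Mrpl14 0.11 ± 0.23.

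Sex and background reading moved together: 11 of 15 female arrays and 0 of 16 male arrays had a reading over 80. With that class as a term in the fit, which only the female WSP arrays set, Rpl27a measured 0.70 (adjusted p = 0.601) and Rpl36 -0.20 (adjusted p = 0.9), and 0 probes passed. Among the arrays of low background alone, female WSP against male WSP, Mrps7 was the 1 gene to pass (-0.79, adjusted p = 0.0286). In that fit 138 probes passed. Of the 9 marker probes tested, 3 passed between the sexes, all lower in females, against 25.8% of all probes, most of them also lower (19.2%): Syn1 (-0.59, adjusted p = 0.0311), glutamine synthetase (-0.85, adjusted p = 0.00341) and the choroid plexus marker Enpp2 (-0.66, adjusted p = 2.68e-04). The mean level of the 2 astrocyte probes ran from 5.04 to 6.84 on female and from 5.95 to 6.71 on male arrays, and that of the 2 choroid plexus probes from 7.57 to 9.19 and from 8.89 to 9.50. The single neuron probe ran from 3.05 to 5.06 on female and from 3.77 to 5.94 on male arrays, and the 4 blood probes, as a mean, from 5.16 to 6.47 and from 5.32 to 6.11. Their part in the difference at Rpl27a and Rpl36 was not tested.

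Other genes of translation were read from the same fit, from lists chosen with earlier results known. Between EtOH and Air none passed: 0 of 5 tested tags similar to a ribosomal protein, 0 of 2 S6 kinases, 0 of 4 translation factor probes, 0 of 2 aminoacyl-tRNA synthetases and 0 of 1 nucleolar gene. Over sex and treatment the counts were also 0 between WSP and WSR, while in female Air 1 of the 2 synthetases was higher in WSP (3.31% of all probes passed there). Between females and males 1 tag was lower, 1 S6 kinase higher, 1 translation factor probe lower and nucleophosmin 1 lower, 4 of 14 tested, which is near the 25.8% of all probes that passed. Nucleophosmin 1 (Npm1), a nucleolar chaperone of ribosome assembly that was above background on all 31 arrays, measured -0.89 ± 0.18 (SE, log2, adjusted p = 7.09e-04), and the 90 kD S6 kinase polypeptide 2 measured 0.71 ± 0.19 (adjusted p = 0.00658). The tag similar to ribosomal protein S25 measured -0.79 ± 0.18 (adjusted p = 0.00221). One of the 2 probes titled initiation factor 2B, which recycles the factor that brings the initiator tRNA, measured -0.56 ± 0.18 (adjusted p = 0.023), and the other -0.05 ± 0.12.

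How far the 9 genes varied together was measured on their deviations from group means, separately on the 16 male arrays and on the 11 female arrays with a background reading over 80. Over all 36 pairs the median Pearson correlation was -0.14 on these female arrays (13 positive) and 0.06 on the male arrays (19 positive), against -0.01 and -0.00 over all pairs of cDNA probes. Within the family of 72 correlations, 4 pairs on the female and 1 on the male arrays passed an adjusted p of 0.05 in Pearson's r and Spearman's rho (permutation tests with 1e+05 draws). The pairs were Rpl19 with Rps3 in both kinds of array and Rpl19 with Rpl30, Rpl30 with Rps3 and Rpl36 with Mrps7 on the female arrays. Permutations ran over all arrays of a kind, while the deviations within a group cancel and so are not independent. These and all later permutation p-values may therefore be too small.

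Rpl19, Rpl30 and Rps3 are spotted within 2 rows and columns of each other in 1 grid of the filter, and they were singled out after their correlations were seen. Their 3 pairs had a median r of 0.95 on the female arrays (0.91 to 0.98) and 0.64 on the male arrays (0.55 to 0.82). Rpl30 and Rps3, on adjacent spots, reached r = 0.98 and rho = 0.98 on the female arrays (adjusted permutation p = 0.00072 for each, the smallest that this many permutations can give) and r = 0.96 without the 2 arrays farthest from the median. On the male arrays the same pair had r = 0.64 and rho = 0.65 (adjusted permutation p = 0.0718 and 0.07). Rpl36 and Mrps7, on different fields of the filter, had r = 0.92 and rho = 0.85 on the female arrays (adjusted permutation p = 0.00216 and 0.0232; r = 0.84 without 2 arrays), and r = 0.18 on the male arrays.

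Correlation between probes fell with the distance between their spots, whatever the gene. Over all cDNA probe pairs the median r was 0.91 on the female and 0.45 on the male arrays for adjacent spots, 0.83 and 0.37 at 2 spots apart, 0.35 and 0.19 at 10 spots apart, and -0.03 and -0.01 for spots in different grids. Genes are not independent replicates, and these are descriptions. The pairs of Rpl19, Rpl30 and Rps3 lay above the median of pairs at the same distance. After the median of the neighbouring spots of other genes (within 2 rows and columns, 14 to 24 spots) was subtracted, a step chosen after seeing the data, the median r of those 3 pairs was 0.26 on the female arrays and -0.12 on the male arrays. The pair of Rpl30 and Rps3 kept r = 0.92 on the female arrays (rho = 0.88, adjusted permutation p = 0.0137 and 0.0454, r = 0.81 without 2 arrays) and had -0.12 on the male arrays. It is the 1 pair of 36 that passed there after this step, and none did on the male arrays. Over all cDNA probe pairs, adjacent spots on the female arrays still had a median r of 0.21 after this step (upper quartile 0.52). At 2 spots apart the median was -0.025.

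**Figure D3:**
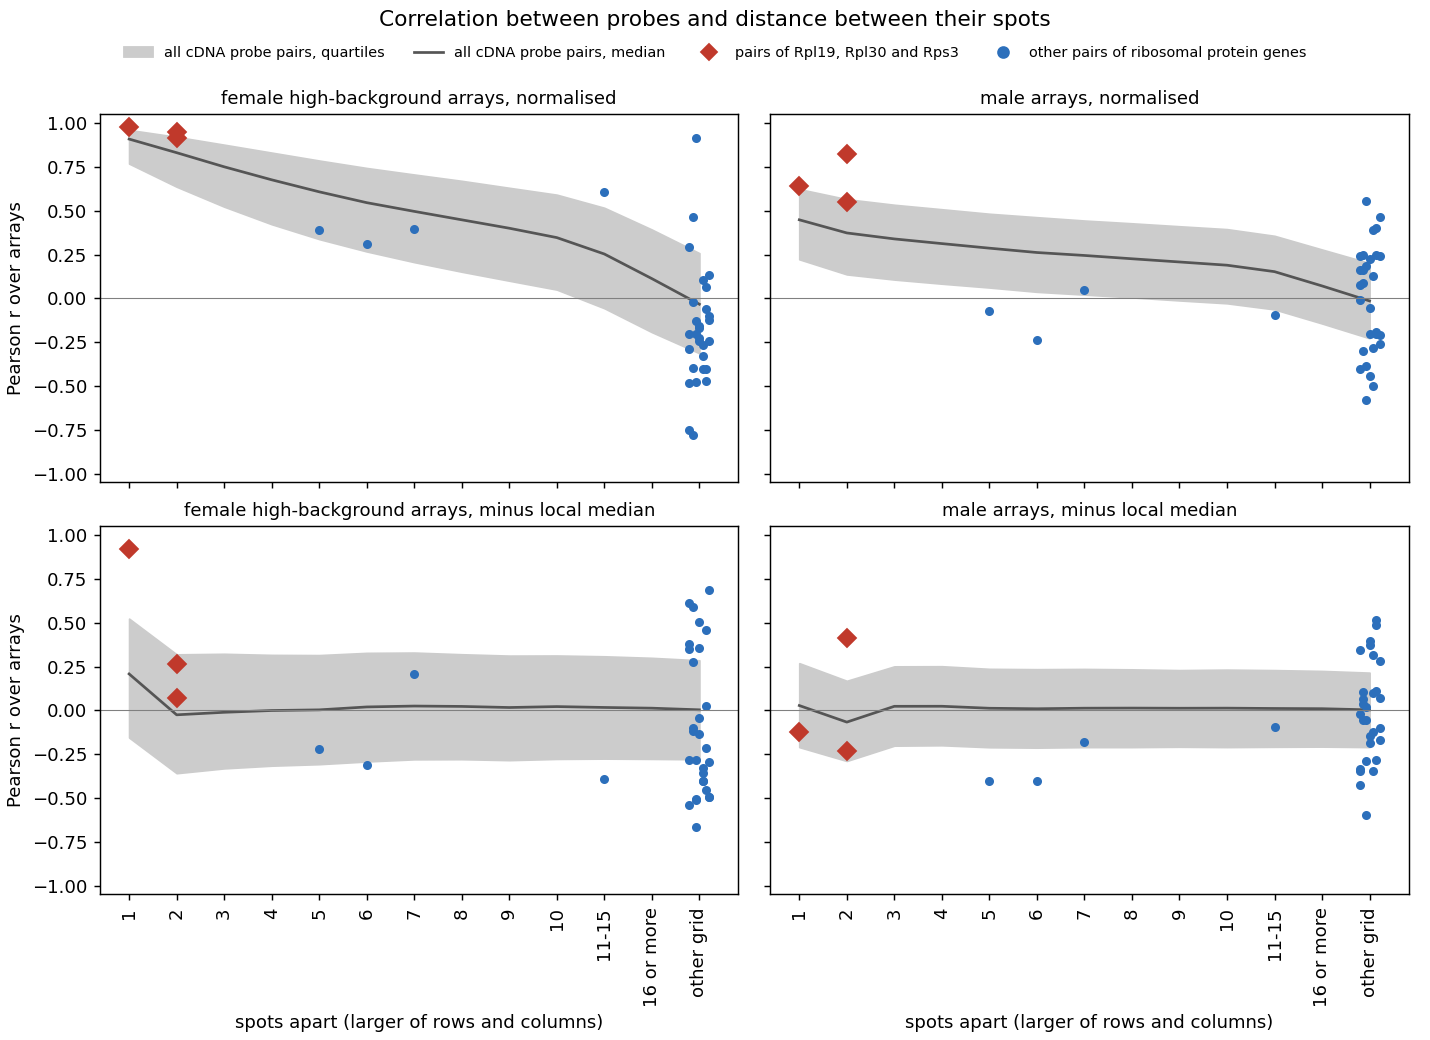
Pearson correlation between probes over arrays (vertical axis) against the number of spots between them (horizontal axis), for 11 female high-background arrays (left) and 16 male arrays (right), as normalised (top) and after the local median was subtracted (bottom). The grey line and band are the median and quartiles of all cDNA probe pairs, red diamonds the pairs of Rpl19, Rpl30 and Rps3, and blue points the other 33 pairs. In the top panels the grey line falls from 0.91 and 0.45 for adjacent spots to near 0 for other grids, and in the bottom panels it stays near 0 beyond 1 spot apart.

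Each ribosomal protein gene was set against the median of its neighbouring spots. On the female high-background arrays r ran from 0.82 (Rpl27a) to 0.99 (Rpl19, Rps3 and Mrps7) and all 9 relations passed in r and rho after adjustment over 18 relations (permutation tests, adjusted p at most 0.00264 for r and 0.00275 for rho). On the male arrays r ran from 0.11 (Mrps7) to 0.86 (Rps3), and 7 of 9 passed; Mrps7 and Rpl36 did not in both measures. For all 5163 probes the median of this r was 0.95 on the female and 0.61 on the male arrays, against 0.96 and 0.72 for the 9 genes. On the female arrays the standard deviation within groups of Mrps7 was 0.74 as normalised and 0.13 with the local median subtracted. On the male arrays that of Mrps7 was 0.26 and 0.37. For each of the 9 genes r was higher on the female than on the male arrays.

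**Figure D4:**
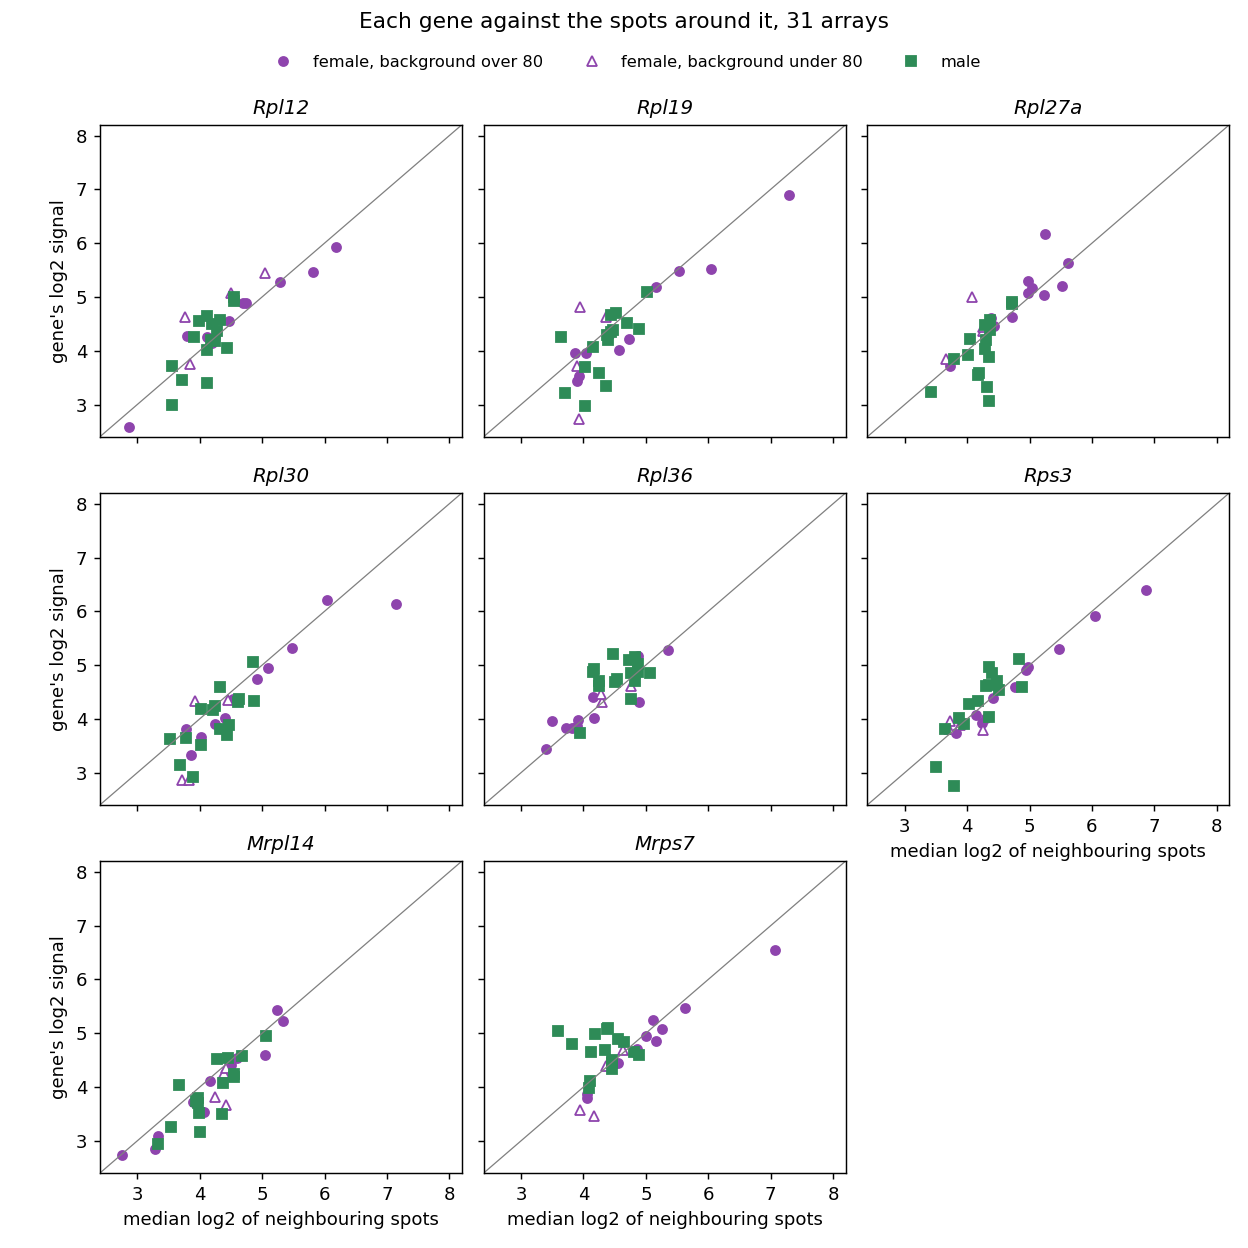
Normalised log2 signal of each of 8 genes (vertical axis) against the median log2 signal of its neighbouring spots of other genes (horizontal axis) on 31 arrays. Filled circles are female arrays with a background reading over 80, open triangles the other female arrays and squares male arrays, and the grey line marks equal values. The female high-background arrays follow the line, Rpl19 up to 6.89, while the male Mrps7 points lie in a band from 3.98 to 5.09 whatever their neighbours.

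With the local median subtracted, 3 of 7 genes passed between females and males, Rpl27a and Mrps7 among them, against 34.0% of all probes. Rpl27a measured 0.40 ± 0.15 (SE, log2, adjusted p = 0.0355) and Mrps7 -0.54 ± 0.13 (adjusted p = 0.00112), while Rpl36 did not pass (-0.19 ± 0.12, adjusted p = 0.227). Relative to its neighbours, Mrps7 ran from -0.71 to 0.12 on female arrays (median -0.17), against -0.29 to 1.45 on male arrays (median 0.26). The highest mean among the male groups was that of WSP EtOH, with arrays at 0.69, 0.33, 1.45 and 0.98, against -0.29, 0.34, 0.06 and 0.78 in male WSP Air. The difference of those groups was 0.64 ± 0.25 (SE, log2, adjusted p = 0.795). Within WSP the Mrps7 difference was -0.76 ± 0.18 (adjusted p = 0.00374, 10.1% of all probes passing), and within WSR no gene passed (30.6% of all probes), with Rpl27a at 0.33 ± 0.22. In the EtOH and line comparisons no gene passed after this step (0.00% of all probes for the mean EtOH response and 2.01% for the mean line difference). Rpl19 measured -0.40 ± 0.14 for EtOH minus Air (adjusted p = 0.992), and Rpl27a and Rps3 measured 0.02 ± 0.15 and -0.09 ± 0.12 for WSP minus WSR.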

How the data were processed

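RNA of pooled prefrontal cortex was hybridised as 33P-labelled cDNA to filters, per the labels' protocols. The deposited intensity values (1 signal per spot and 1 background reading per array) are not normalised. The quantification software is not given in the sources used here. The deposited series matrix holds a score, which on comparison is each array's log2 signal rescaled to a mean of 8 and an SD of 2, blank for most spots below background (column medians 7.351 to 11.19). Its direction is that of the signal, and its centring is per array.

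Here, 192 of 5355 spots (controls) were left out, and the signal was corrected with normexp in limma 3.58.1 (R 4.3.3). The offset was 50 for arrays with a median of at least 500 and otherwise 0.1 of the median. Values were log2-transformed and quantile normalised. Probes above the 25th percentile of mean log2 signal were tested with 1 mean per group (31 arrays, 23 residual degrees of freedom), eBayes and Benjamini-Hochberg adjustment over 3872 probes, at 0.05, in 16 comparisons. The fit was tested on simulated data. The number of arrays limits the precision, and p-values measure the spread between pools.

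The counts cover all 9 genes. A gene among them and a marker gene are not reported here singly. The members and lists were chosen with earlier results of these data known. Alternatives covered background, offset, normalisation, filter, blocks, weights, the excluded array and each array left out. The local median, low-background arrays only and quantile before log2 were chosen after seeing the data.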

Additional observations from a re-analysis of the deposited data

Results flagged for a closer look

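Rps3 in female WSP Air stood out on 1 array of its group. The pool 1-1 read 5.29 on the log2 scale and the other 3 arrays 3.74 to 3.89, a gap of 0.907 of the group's range. The neighbouring spots of other genes had a median of 5.48 on that array, which puts Rps3 0.19 below them. In all 63 groups of 4 arrays were examined, and chance flags about 1 in 20. The array that the submitters marked excluded, female WSR EtOH 2-1, was above background for 2 of the 9 genes. Mrpl14 read 6.03 there (1.31 times background), above the female WSR Air arrays (2.81 to 4.50) and above all other female WSR arrays (highest 5.32). Mrps7 read 5.66 (1.17 times background), above the highest female WSR Air array, also at 5.32, and within the range of all other female WSR arrays (3.88 to 6.62).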

How the results depend on the processing

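Of the counts of ribosomal protein genes past the threshold, 209 of 222 stayed within 1.5 times under another setting and 478 of 496 with 1 array left out. Most of these are counts of 0 that stayed 0, often where few or no probes passed. Between females and males the count stayed in 9 of 13 settings and 16 of 31 fits with an array left out, and in WSR in 9 of 13 and 29 of 31. A count can stay while its genes change: with the local median subtracted, Rpl36 no longer passed and Mrps7 did. Rpl27a and Rpl36 kept their direction between females and males in every setting and with each array left out, wherever they were tested. The medians over the genes stayed in 212 of 222 cases under another setting and in 492 of 496 with 1 array left out. Stayed means here a shift smaller than the within-group spread of the per-array median over the genes. Their sign was less firm: in each of the 16 comparisons it changed under at least 1 setting. The median ranged from -0.64 to 0.38 for EtOH in female WSR and from -0.19 to 0.38 for EtOH in male WSP. For females against males in WSP it ranged from -0.42 to 0.17, and for WSP against WSR from -0.29 to 0.02. The ends at 0.38 and at -0.42 came with the filter at the 50th percentile, which leaves fewer genes. They equal the main values of Mrps7, Rpl36 and Mrps7, in that order. Between females and males (2 genes) the count was 1 without normexp, 1 with the filter at the 50th percentile, 1 with array weights and 0 with background class as a term, and 1 to 3 with an array left out. Rpl27a stayed past the threshold in 31 of 31 of these and ranged from 0.38 to 0.91 over the settings. Between females and males of WSR (1 gene) it was 0 with the filter at the 50th percentile, array weights, background class or the local median, and 1 to 2 with an array left out: Mrps7 passed, higher in females, without female WSR EtOH 1-1 (0.78, adjusted p = 0.0421) and Rpl36 without female WSR EtOH 1-2 (adjusted p = 0.0463). In WSP (0 genes) it was 1, Mrps7, lower in females, with array weights, the local median or low-background arrays only. For WSP minus WSR in female EtOH (0 genes) it was 1, Mrps7, with array weights, and 0 to 1 with an array left out; for the interaction of line and sex (0 genes) it was 1, Mrps7, with array weights. The filter at the 50th percentile removes Rpl12, Rpl19, Rpl27a and Rps3 by construction, so counts and medians under it cover fewer genes. The cause of the other shifts was not tested. Over all probes, 0 to 1335 passed between females and males (998 as reported), 0 to 1243 in WSR (862), 13 to 474 in WSP (176), 0 to 383 between lines (46), 0 to 429 in female Air (128), 0 to 39 in female EtOH (2), 0 to 21 in male EtOH (0), 0 to 24 for EtOH in female WSR (9), 0 to 13 in female WSP (0) and 0 to 408 for the interaction of line and sex (35). The median over the genes between females and males ranged from -0.04 to 0.32. With cyclic loess the WSR calls over all probes were 134 higher and 50 lower, against 187 and 675. The array numbers do not pair the arrays (mean r = 0.01 for the same number and -0.00 for different ones, 14 of 31 arrays best with their own), and with them as a replicate block Rpl27a measured 0.87 (adjusted p = 0.00247) and Rpl36 -0.49 (adjusted p = 0.0248) between females and males, and Rpl27a 1.06 (adjusted p = 0.011) in WSR. The series matrix was not run as an alternative, since 0 of the 9 genes have 2 values in every group. Signal near background limits all 9 genes: in 37 of 90 differences between groups of single genes, 1 side was never above background.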
